A study of Mus musculus with 6 samples.

Results

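Genes of the bone morphogenetic protein (BMP) system were followed in sorted mouse cartilage cells: the ligand genes Bmp2, Bmp3, Bmp4, Bmp5, Bmp6, Bmp7 and Gdf5, and the genes of the secreted antagonists Grem1, Nog and Chrdl1. These 10 members, 7 ligands and 3 antagonists, were taken by symbol from the 54532 genes of the count table. Bmp7 was the ligand that stood highest in Gli1+ relative to Gli1- cells (4.06-fold), while Bmp2 and Bmp3 were 2.48-fold and 2.32-fold lower, and Bmp6 did not separate the groups. Among the ligand transcripts, Bmp6 held the largest mean share in Gli1+ cells and Bmp2 in Gli1- cells. The leading ligand was not the same in all 3 libraries of either group. Bmp7 led in Gli1+ replicate 1, the library with the fewest detected genes, and Bmp6 in Gli1+ replicates 2 and 3. Without Gli1+ replicate 1 the log2 fold change of Bmp7 was 1.55, against 2.02 with all libraries. Without Gli1- replicate 1 Bmp6 had the largest mean share in Gli1- cells too. No member passed the adjusted threshold in the edgeR test, but neither did any other of the 14801 genes tested. A paired DESeq2 fit called Bmp7 and Bmp2, beside 2.89% of all genes, while edgeR and limma-voom fits paired in the same way called 0 genes. The calls of the paired DESeq2 fit changed when a replicate number was left out. They were Bmp2, Bmp3, Bmp5 and Bmp7 without replicate 1, Bmp7 alone without replicate 2, and no member without replicate 3.

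BMPs are secreted dimers of the TGF-beta superfamily that bring type I and type II serine/threonine kinase receptors together, after which receptor-activated SMAD proteins enter the nucleus with SMAD4 and induce genes such as the Id family. In cartilage they are known for driving condensation, chondrocyte proliferation and maturation, and their range is set by secreted proteins that bind the ligand and keep it from its receptors. Hedgehog signalling, of which the transcription factor gene Gli1 is a target, is known to act together with BMPs in the growth plate.

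The libraries came from c57BL/6 mice carrying Gli1-CreERT2, a tamoxifen-inducible Cre expressed from the Gli1 locus, and the Ai9 tdTomato reporter. Mice of 1 month were harvested 24 h after tamoxifen, and CD45-CD31-Ter119- cells were sorted into tdTomato+ cells (Gli1+, n = 3 libraries) and tdTomato- cells (Gli1-, n = 3 libraries), both from the same mice, so that the allele, the reporter and the drug were shared by both groups. The tissue is growth plate in the labels and costal cartilage in the study's text. The reporter marks cells that expressed the Cre around the time of the drug, and a cell that did not recombine falls into the Gli1- gate.

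Total counts lay between 17114101 and 18602482 per library, and 20666 to 23360 genes had a count in each library except Gli1+ replicate 1, which had 15000. Gli1 itself had 86, 104 and 152 counts in the Gli1+ libraries against 14, 19 and 46 in the Gli1- libraries, so the groups followed the sort label. The chondrocyte markers were present in every library (Col2a1 at 874 TPM or more, where TPM are counts divided by gene length and brought to the same total in each library), the endothelial markers summed to at most 8.18 TPM, and the leukocyte markers summed to 17861 TPM in Gli1- replicate 1, mainly S100a8 and S100a9, against 48.0 to 240 TPM in the other libraries. For the fold changes of Bmp7, Bmp2 and Bmp5, values without either of these replicate 1 libraries are given beside the main ones.

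RefSeq promoter windows (GRCm38.p6) were at hand for 4 of the 10 members, Grem1, Bmp5, Bmp6 and Bmp4. The parts upstream of the first exon are shown for 3 of them, because the cells were sorted on a Gli1 allele and the core of the GLI binding motif, CCACCCA, can be looked for there on both strands. Capitals mark a match. The Bmp6 window begins within an annotated exon, so it has no upstream part to show.
Grem1: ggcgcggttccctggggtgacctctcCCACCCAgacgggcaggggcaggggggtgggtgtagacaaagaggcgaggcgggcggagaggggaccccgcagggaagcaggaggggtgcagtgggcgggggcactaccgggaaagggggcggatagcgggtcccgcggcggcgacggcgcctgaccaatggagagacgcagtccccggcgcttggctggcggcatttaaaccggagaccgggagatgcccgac
Bmp5: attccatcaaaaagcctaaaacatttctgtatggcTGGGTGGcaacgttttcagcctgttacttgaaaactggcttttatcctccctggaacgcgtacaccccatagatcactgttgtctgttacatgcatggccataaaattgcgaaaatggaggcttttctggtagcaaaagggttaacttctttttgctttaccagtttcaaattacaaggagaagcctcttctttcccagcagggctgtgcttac
Bmp4: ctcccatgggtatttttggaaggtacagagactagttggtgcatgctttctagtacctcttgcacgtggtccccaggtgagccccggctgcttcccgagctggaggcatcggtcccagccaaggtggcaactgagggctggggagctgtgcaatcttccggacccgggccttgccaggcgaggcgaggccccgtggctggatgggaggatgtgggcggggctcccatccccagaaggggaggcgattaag
Grem1 (chr2:113758649-113758898, minus strand) had 1 match, 224 bases before the start, on the strand of the gene. Bmp5 (chr9:75775115-75775363, plus strand) had 1 match, 215 bases before the start, on the opposite strand and so printed as its reverse complement, and Bmp4 (chr14:46390670-46390919, minus strand) had none. The motif stood in 3056 of all 32851 windows of 300 bases (9.30%), which are longer than the parts shown. Counted over whole windows, Grem1 and Bmp5 still had 1 match each and Bmp4 had none. The windows also differed in CpG dinucleotides, with 24 in Grem1, 11 in Bmp4 and 4 in Bmp5. These matches describe letters only.

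Bmp7 encodes a ligand of the subgroup that also holds BMP5 and BMP6, and lies at chr2:172868012-172940321 (mm10) on the minus strand. Its level as TMM-scaled CPM (gene counts relative to the scaled library total) was 115, 38.6 and 70.0 in Gli1+ replicates 1 to 3 and 18.6, 22.3 and 14.02 in Gli1- replicates 1 to 3. The groups did not overlap, with Gli1+ replicate 2 the closest to the Gli1- values. The log2 fold change was 2.02 (SE 0.50, unadjusted p = 0.0035, adjusted p = 0.9999, edgeR quasi-likelihood test over 14801 genes), and the value was 1.55 when Gli1+ replicate 1 was left out, and leaving out Gli1- replicate 1 gave 2.03. Within the replicate numbers the log2 differences were 2.62, 0.79 and 2.32. With the replicate number as a block, DESeq2 called Bmp7 (log2 fold change 1.91, SE 0.46, adjusted p = 0.00306), while edgeR with the same block did not (adjusted p = 0.381).

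Bmp2, the ligand best known for inducing cartilage and bone, lies at chr2:133552159-133562885 (mm10) on the plus strand. It stood at 68.8, 92.5 and 97.2 CPM in the Gli1+ libraries and at 223, 161 and 257 CPM in the Gli1- libraries. Every Gli1- library was above every Gli1+ library, with no overlap on this scale. The log2 fold change was -1.31 (SE 0.40, unadjusted p = 0.0105, adjusted p = 0.9999, edgeR), leaving out Gli1+ replicate 1 gave -1.19 and leaving out Gli1- replicate 1 gave -1.28, and Bmp2 was lower in Gli1+ in 3 of 3 pairs. The paired DESeq2 fit called it (log2 fold change -1.31, SE 0.34, adjusted p = 0.00806), and edgeR with the block did not (adjusted p = 0.381).

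Bmp3, an atypical member known to restrain other BMPs in bone, was the next ligand with all Gli1+ libraries below. Its levels were 13.7, 10.9 and 9.03 CPM in Gli1+ and 23.3, 28.7 and 25.9 CPM in Gli1- libraries. The groups did not overlap, and the replicates within each were close to each other. In edgeR the difference was -1.21 on the log2 scale (SE 0.41, unadjusted p = 0.0168, adjusted p = 0.9999), and the paired DESeq2 fit gave an adjusted p of 0.0565.

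Bmp5, whose loss gives the short-ear mouse, had 62.5, 66.3 and 34.8 CPM in Gli1+ and 68.9, 133 and 118 CPM in Gli1- libraries. The groups were apart by a small margin, since Gli1- replicate 1 lay just above Gli1+ replicate 2. For Bmp5 the log2 fold change was -0.97 (SE 0.44, unadjusted p = 0.0599, adjusted p = 0.9999, edgeR), with -1.09 and -1.21 on leaving out Gli1+ replicate 1 and Gli1- replicate 1. The antisense gene Gm26903 shares 1878 exon bases with Bmp5, 46.7% of its length. It had at most 47 counts in a library, against 663 or more for Bmp5. How reads in shared bases were counted is not given in the sources used here. Reads may thus have been lost from Bmp5, which the low Gm26903 counts cannot show.

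Bmp6, a ligand known from hypertrophic chondrocytes, did not separate the groups. It stood at 95.8, 330 and 218 CPM in Gli1+ and at 142, 261 and 233 CPM in Gli1- libraries. In each group replicate 1 was lowest and replicate 2 highest, and the ranges overlapped almost wholly. For Bmp6 the log2 fold change was 0.02 (SE 0.53, adjusted p = 0.9999, edgeR), its sign was negative in 10 of 20 alternative fits, and the paired DESeq2 fit gave -0.12 (SE 0.34). The gene Txndc5 on the other strand shares 224 exon bases with Bmp6, 5.74% of its length, and had 2059 to 6791 counts. The strand setting of the counting is not given in the sources used here. Reads in the shared bases may thus have been lost from Bmp6 or wrongly added to it.

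Bmp4 and Gdf5 were low. Bmp4, a close relative of Bmp2, had 42, 46 and 9 counts in the Gli1+ libraries and 49, 76 and 40 in the Gli1- libraries, or 0.473 to 2.82 against 2.12 to 5.04 CPM. Gdf5, which marks joint-forming cells, had 2.17, 8.72 and 2.99 CPM in Gli1+ and 2.64, 12.9 and 10.1 CPM in Gli1- libraries. The groups overlapped for both genes, although both were lower in Gli1+ in 3 of 3 pairs. Their log2 fold changes were -0.81 (SE 0.83) and -0.89 (SE 0.79), each with an adjusted p of 0.9999 in edgeR. Gdf5 shares 936 exon bases, 40.3% of its length, with the antisense gene Gm15557, which had at most 8 counts. Reads in the shared bases may have been lost from Gdf5 too.

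**Figure D1:**
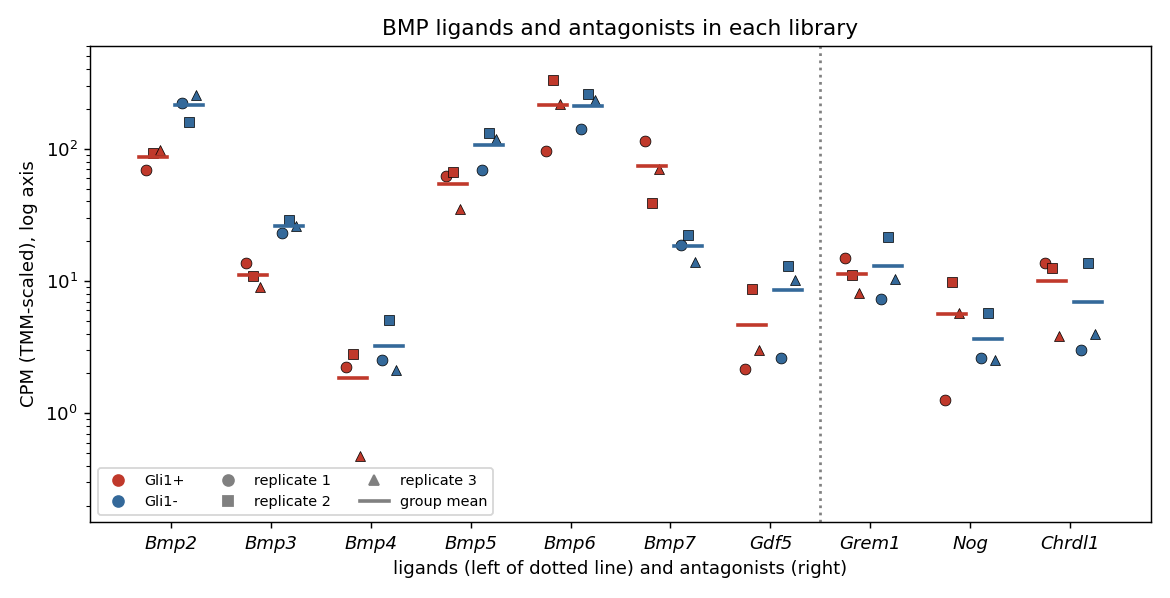
Level of each member in each library, as TMM-scaled CPM on a log axis; red points are Gli1+ and blue points Gli1- libraries, the point shape gives the replicate number and the short lines are the group means. Bmp7 is the member whose Gli1+ points all lie above its Gli1- points, Bmp2, Bmp3 and Bmp5 have all Gli1+ points below, and the other 6 overlap.

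The 3 antagonist genes showed no separation of the groups. Grem1, whose product gremlin binds BMP2 and BMP4, had 14.9, 11.1 and 8.19 CPM in Gli1+ and 7.29, 21.6 and 10.4 CPM in Gli1- libraries. The Gli1+ range lay within the Gli1- range, and the log2 fold change was -0.20 (SE 0.55, adjusted p = 0.9999, edgeR). Its sign changed under TPM scaling (0.12) and without Gli1- replicate 2 (0.33).

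Nog encodes noggin, which blocks the receptor-binding faces of several BMPs. It had 1.27, 9.83 and 5.78 CPM in Gli1+ and 2.64, 5.70 and 2.54 CPM in Gli1- libraries. Gli1+ replicate 1 held the lowest value of all 6 libraries, with 24 counts, and Gli1+ replicate 2 the highest. For Nog the log2 fold change was 0.63 (SE 0.80, adjusted p = 0.9999, edgeR), and -0.05 without Gli1+ replicate 2.

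Chrdl1 encodes chordin-like 1, a secreted BMP-binding protein. Its levels were 13.8, 12.5 and 3.83 CPM in Gli1+ and 2.999, 13.7 and 3.97 CPM in Gli1- libraries. Replicates 2 and 3 were nearly equal between the groups, and the difference came from replicate 1, where the Gli1+ library was higher by 2.20 on the log2 scale. The log2 fold change was 0.54 (SE 0.76, adjusted p = 0.9999, edgeR), and the paired DESeq2 fit without replicate 1 gave -0.11.

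All 10 members passed the filter on low counts, and edgeR called 0 of 10 at a log2 fold change over 1 in size and an adjusted p under 0.05, where it called 0% of all genes. At an unadjusted p under 0.05 there were 3 members (Bmp2, Bmp3 and Bmp7), beside 3.47% of all genes. Libraries of the groups did not overlap in CPM for 1 member that was higher in Gli1+ (4.04% of all genes) and for 3 that were lower (4.45%). On the TPM scale Bmp7 alone did not overlap (3.09% of all genes higher, 5.01% lower), and the lowest Gli1- library of Bmp2, Bmp3 and Bmp5 fell within the Gli1+ range. Of the members, 1 was higher in 3 of 3 pairs and 5 were lower, beside 17.6% and 19.9% of all genes. The median log2 fold change was -0.50 over the members and 0.00133 over all genes tested. With 3 libraries a group, an exact permutation test of a single gene cannot give a 2-sided p under 0.1.

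The paired DESeq2 fit called 2.89% of all genes, 0.777% as higher in Gli1+ and 2.11% as lower, and among the members it called 1 higher (Bmp7) and 1 lower (Bmp2). With the same block, edgeR and limma-voom called 0 genes. No gene named below as called by the paired DESeq2 fit was therefore called by these 2 fits. The DESeq2 calls also rested on which replicate numbers were in the fit. Without replicate 1, which holds the Gli1+ library with few detected genes and the Gli1- library rich in leukocyte transcripts, it called 4 members, namely Bmp2, Bmp3, Bmp5 and Bmp7, beside 5.09% of all genes. Without replicate 2 it called Bmp7 alone (1.15% of all genes), and without replicate 3 it called no member (0.482% of all genes). The edgeR fit with no filter on low counts called Bmp7 (adjusted p = 0.0459) and 0.936% of all genes. The direction was the same in all 20 alternative fits for Bmp2, Bmp3, Bmp4, Bmp5, Bmp7 and Gdf5.

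**Figure D2:**
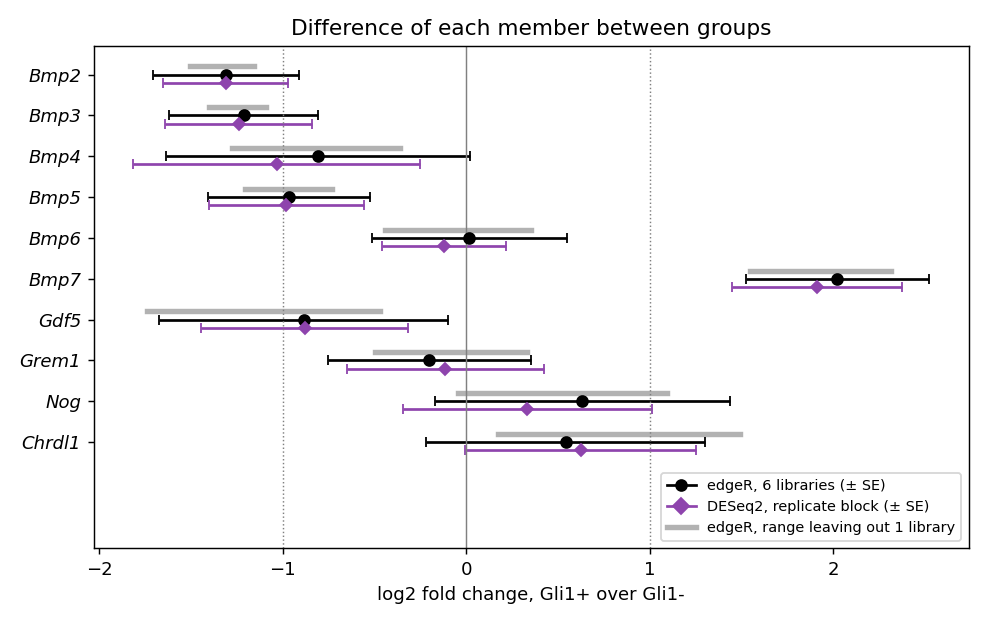
Log2 fold change of each member, Gli1+ over Gli1-. Black circles are the edgeR fit and purple diamonds the DESeq2 fit with the replicate block, both with standard errors; grey bars give the range of the edgeR value when each library was left out in turn, and dotted lines mark a 2-fold difference. Bmp7 lies to the right of 1 and Bmp2 and Bmp3 to the left of -1 in both fits, while the antagonists lie around 0 with wide errors.

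To ask which ligand dominates, levels were set on a per-length scale, as TPM. In Gli1+ cells the mean order was Bmp6 (163 ± 46.3 TPM, SD, n = 3), Bmp2 (79.6 ± 21.3), Bmp7 (70.0 ± 54.3) and Bmp5 (45.2 ± 21.4). The ranges of Bmp6 and Bmp2 did not overlap, while Bmp2, Bmp7 and Bmp5 each overlapped with the next, and on CPM per kilobase the ranges of Bmp6 and Bmp2 overlapped too, with Bmp6 higher in 3 of 3 libraries. Below them came Grem1 (9.59 ± 5.67), Nog (9.26 ± 5.11), Gdf5 (5.60 ± 2.12), Bmp3 (5.24 ± 2.70), Chrdl1 (5.04 ± 3.71) and Bmp4 (2.62 ± 1.85), each overlapping with the next.

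In Gli1- cells Bmp2 came first (199 ± 95.0 TPM, SD, n = 3) and its range overlapped with that of Bmp6 (165 ± 53.1). Bmp5 (80.3 ± 26.8) and Bmp7 (13.8 ± 2.86) followed, each apart from the gene above it. Bmp3 (10.9 ± 2.73), which overlapped with Bmp7, Gdf5 (10.7 ± 6.21), Grem1 (8.83 ± 2.16) and Nog (6.08 ± 0.678) overlapped in sequence, and below them Bmp4 (4.09 ± 0.502), apart from Nog, and Chrdl1 (2.66 ± 1.32) were lowest. The mean Bmp7 level in Gli1+ cells rested on replicate 1: without that library it was 41.0 TPM, against 76.0 TPM for Bmp2.

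The share of each gene in the summed TPM of the 7 ligands does not depend on how libraries are scaled against each other. Bmp6 held 26.8%, 59.1% and 49.95% in Gli1+ and 28.9%, 41.2% and 34.4% in Gli1- replicates 1 to 3. Bmp2 held 21.1%, 18.2% and 24.4% in Gli1+ and 49.6%, 27.9% and 41.7% in Gli1- libraries. Bmp2 shares did not overlap between the groups, and Bmp6 shares did. Bmp7 held 31.1%, 6.72% and 15.5% in Gli1+ and 3.67%, 3.42% and 2.01% in Gli1- libraries, again without overlap. Bmp5 held 7.72% to 16.9% and 13.6% to 20.3%, and Bmp3, Bmp4 and Gdf5 held at most 3.44% each in any library.

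The leader differed within each group. Bmp7 led in Gli1+ replicate 1, and Bmp6 led in Gli1+ replicates 2 and 3. Bmp2 led in Gli1- replicates 1 and 3, and Bmp6 led in Gli1- replicate 2. The mean share of the leading ligand was 45.3% ± 16.7 (SD, n = 3) for Bmp6 in Gli1+ cells and 39.7% ± 11.0 for Bmp2 in Gli1- cells. Without Gli1+ replicate 1 the mean Bmp6 share in Gli1+ cells was 54.5%. Without Gli1- replicate 1 the mean Bmp2 share in Gli1- cells was 34.8%, below the 37.8% of Bmp6, so the leader by mean share changed. The mean TPM in Gli1- cells was then 183 for Bmp2 and 181 for Bmp6. The mean Bmp7 share in Gli1+ cells was 17.8% ± 12.3 with all 3 libraries and 11.1% without replicate 1. Bmp2, Bmp5, Bmp6 and Bmp7 together made up 92.8% to 97.6% of the ligand TPM in every library.

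**Figure D3:**
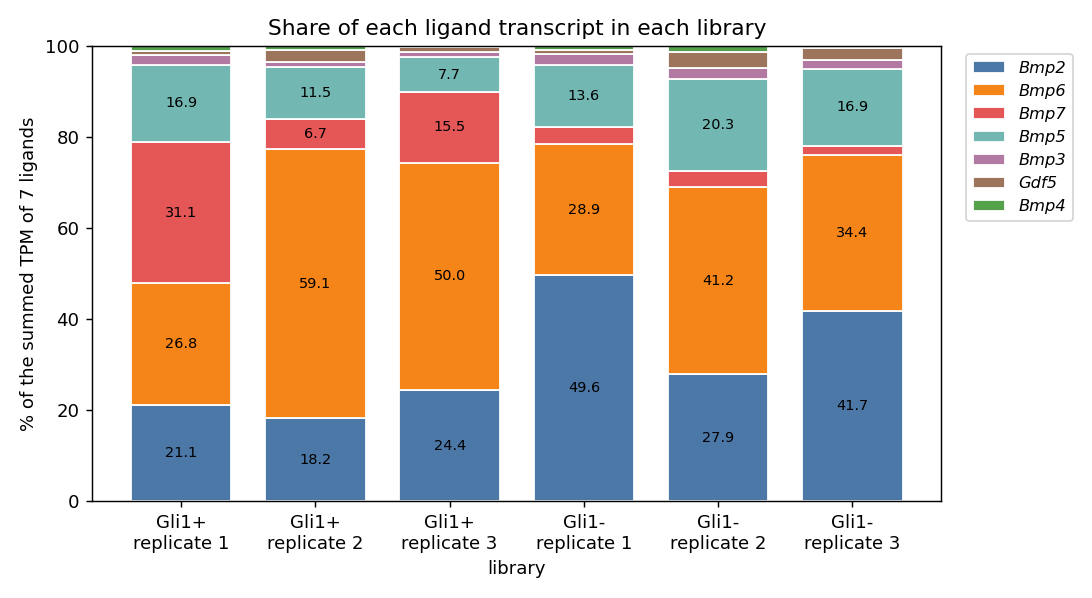
Share of each ligand gene, in percent of the summed TPM of the 7 ligands, stacked for each library; shares over 5% are printed in the bars. The Bmp7 segment (red) is larger in each Gli1+ bar, from 6.72% to 31.1%, than in any Gli1- bar, and the Bmp2 segment (blue) is larger in each Gli1- bar.

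The ratio of Bmp7 to Bmp2 TPM, chosen after the values were seen, was 1.47, 0.369 and 0.637 in the Gli1+ libraries and 0.0739, 0.123 and 0.0482 in the Gli1- libraries. The groups did not overlap, but this was fixed by the choice of genes, since in CPM Bmp7 was already apart as higher and Bmp2 as lower. The separation of the ratio is therefore no further support. In Gli1+ replicate 1 alone Bmp7 exceeded Bmp2. The log2 ratio was -0.51 ± 1.01 (SD, n = 3) in Gli1+ and -3.72 ± 0.67 in Gli1- cells.

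Ligand transcripts outweighed those of the 3 antagonists in every library. The summed ligand TPM was 14.4, 13.9 and 18.8 times the summed antagonist TPM in Gli1+ and 33.6, 15.3 and 37.9 times in Gli1- libraries. Gli1- replicate 2 lay within the Gli1+ range, so the groups overlapped. On the log2 scale the antagonist to ligand ratio was -3.96 ± 0.24 (SD, n = 3) in Gli1+ and -4.75 ± 0.71 in Gli1- cells.

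This balance depended on which antagonists were counted. A wider list held 19 ligand genes (the 7 members and 12 others) and 18 antagonist and modulator genes (the 3 members and 15 others, without the BMP1-type proteases Bmp1, Tll1 and Tll2). On it the antagonist and modulator TPM was 1.52, 1.41 and 1.74 times the ligand TPM in Gli1+ and 3.13, 2.89 and 2.19 times in Gli1- libraries. The direction between the groups was the opposite of that for the 3 members, and the groups did not overlap. The largest contributor in 5 of 6 libraries was Nbl1, which encodes the DAN antagonist. It stood at 89.3, 284 and 505 TPM in Gli1+ and at 1037, 748 and 1059 TPM in Gli1- libraries, without overlap, and made up 12.9% to 76.6% of the antagonist and modulator TPM of a library. Without Nbl1 the wide ratio was 1.32, 0.509 and 0.613 in Gli1+ and 0.977, 0.676 and 0.641 in Gli1- libraries, and the groups overlapped. The overlap came from Gli1+ replicate 1, the library with 15000 detected genes. Gli1+ replicates 2 and 3 still lay below every Gli1- library, replicate 3 by a small margin. The log2 fold change of Nbl1 was -1.65 (SE 0.70, unadjusted p = 0.0466, adjusted p = 0.9999, edgeR), and the paired DESeq2 fit called it as lower (log2 fold change -2.05, adjusted p = 0.00918). The 7 member ligands held 88.5% to 97.9% of the TPM of all 19 ligands.

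**Figure D4:**
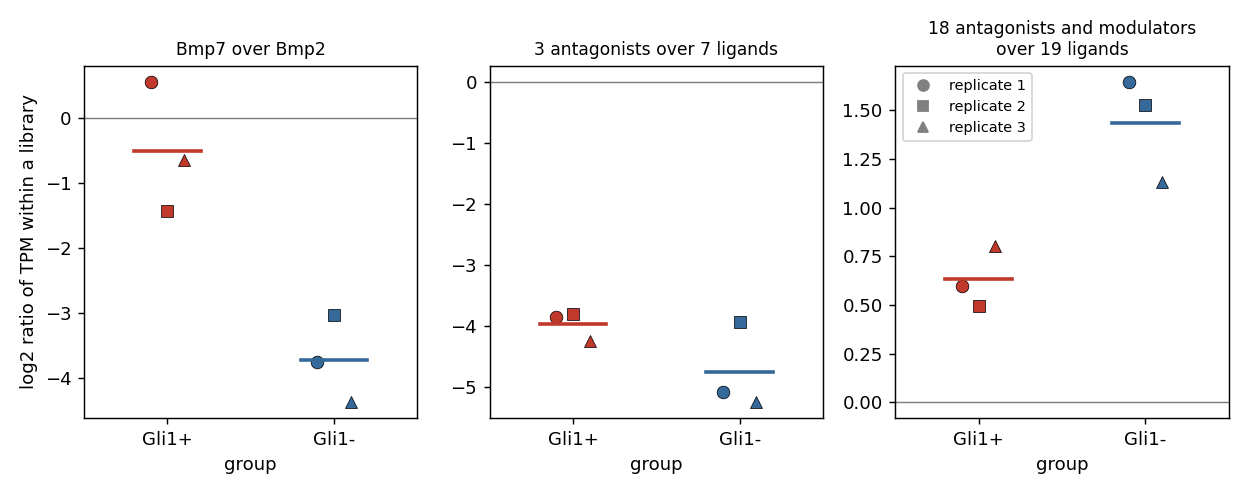
Log2 ratios of TPM within each library, by group, for Bmp7 over Bmp2 (left), the 3 member antagonists over the 7 member ligands (middle) and the wider list of 18 antagonists and modulators over 19 ligands (right); point shapes give the replicate number, coloured lines the group means and the grey line a ratio of 1. Bmp7 over Bmp2 and the wide ratio separate the groups in opposite directions, and the ratio of the 3 member antagonists overlaps. The separation of Bmp7 over Bmp2 follows from the choice of these genes after their values were seen.

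Among the other BMP-family ligands, 5 of 12 genes passed the filter, 2 with a higher and 3 with a lower fitted level in Gli1+, and neither edgeR nor the paired DESeq2 fit called any of them. Bmp8a led them with 29.9 ± 22.0 TPM in Gli1+ and 9.84 ± 6.60 TPM in Gli1- cells (SD, n = 3; log2 fold change 1.48, SE 0.74, adjusted p = 0.9999, edgeR). Bmp10, Gdf1 and Gdf2 did not exceed 3 counts in any library. Of the 18 antagonist and modulator genes that are no members, here with Bmp1, Tll1 and Tll2, 15 were tested, 5 with a higher and 10 with a lower level, and Nbl1 alone was called, by the paired DESeq2 fit. Next to Nbl1, the most abundant were Twsg1, encoding the chordin partner twisted gastrulation (134 ± 102 against 137 ± 58.4 TPM), and Crim1, encoding a membrane protein that binds BMPs (85.7 ± 46.9 against 125 ± 58.4 TPM).

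On the receiving side, 10 receptor and co-receptor genes were tested, 6 higher and 4 lower in Gli1+, and none was called by either fit. Acvr1 and Bmpr1a, which encode type I receptors, were the most abundant. Acvr1 stood at 69.1 ± 32.9 TPM in Gli1+ and 118 ± 55.5 TPM in Gli1- cells (log2 fold change -0.86, SE 0.40), and Bmpr1a at 63.1 ± 53.6 and 46.5 ± 20.2 TPM (0.21, SE 0.48). Bmpr1b, also a type I receptor gene, followed with 37.1 ± 48.2 and 18.4 ± 12.1 TPM. All 6 SMAD genes had a fitted value under 0, with a median of -0.17 (-0.37 to -0.11 when a library was left out), and none was called by either fit. The lowest were Smad6 (-2.09, SE 1.25) and Smad7 (-0.50, SE 0.53), while Smad1, Smad4, Smad5 and Smad9 lay between -0.23 and -0.04, each within its SE of 0. Smad4, the common partner, stood at 93.6 ± 50.5 and 92.3 ± 34.9 TPM.

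The BMP response genes, which are transcribed when the pathway is active, were 3 higher and 6 lower of 9 tested, with a median log2 fold change of -0.52, and edgeR called 0 of them. Leaving out Gli1+ replicate 2 gave a median of -1.26, leaving out Gli1+ replicate 1 gave -0.19, and leaving out Gli1- replicate 2 gave 0.0232. Id1 had 53.0, 113 and 76.6 TPM in Gli1+ and 251, 119 and 168 TPM in Gli1- libraries. Id3 had 12.1, 90.7 and 39.6 TPM in Gli1+ and 190, 149 and 102 TPM in Gli1- libraries, and Id2 had 39.7, 69.8 and 56.1 against 64.4, 94.1 and 70.0 TPM. Every Gli1- library was above every Gli1+ library in TPM for Id1 and Id3, and Id2 overlapped. The edgeR log2 fold changes were -0.99 (SE 0.57) for Id1 and -1.43 (SE 0.88) for Id3, and the CPM of the groups overlapped for both. The paired DESeq2 fit called Id3 alone of these 9 genes (log2 fold change -2.02, adjusted p = 0.0433). Msx2, named after its value was seen, was the response gene with an unadjusted p under 0.05 (log2 fold change 1.98, SE 0.82, adjusted p = 0.9999, edgeR).

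**Figure D5:**
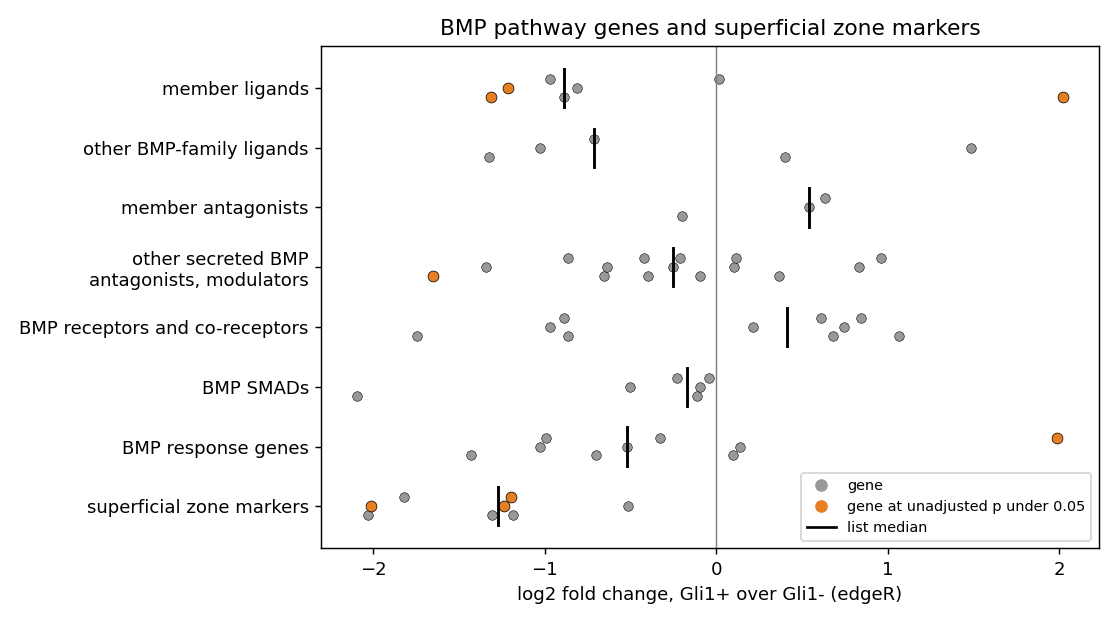
Log2 fold change (Gli1+ over Gli1-, edgeR) of every tested gene of the BMP lists and of the superficial zone markers, a point for each gene; orange points have an unadjusted p under 0.05 and black lines are list medians. The member ligands spread from -1.31 (Bmp2) to 2.02 (Bmp7), and the superficial zone markers all lie below 0.

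Markers of cartilage zones and other cell types were read beside the BMP genes, and edgeR called 0 genes of these lists. All 8 superficial zone markers, among them Prg4, which encodes lubricin, had lower fitted levels in Gli1+ (median log2 fold change -1.27, with -1.90 on leaving out Gli1+ replicate 2 and -0.68 on leaving out Gli1- replicate 2), and their summed TPM ran from 222 to 359 in Gli1+ and from 645 to 1122 in Gli1- libraries. The paired DESeq2 fit called 5 of the 8 as lower, beside 2.11% of all genes. Of the 12 perichondrium and fibroblast markers 10 had lower fitted levels, the summed TPM overlapped (1159 to 2034 and 1227 to 2847), and the paired DESeq2 fit called 4 as lower (Col3a1, Pdgfra, Dpt and Ly6a). The median of this list was -1.27, -1.86 without Gli1+ replicate 2, -0.76 without Gli1+ replicate 3 and 0.0237 without Gli1- replicate 2. Of the 12 chondrocyte markers that fit called Comp and Matn1 as lower. Of the leukocyte markers it called Ptprc, the CD45 gene, as lower (log2 fold change -3.38, adjusted p = 0.0486). Ptprc had 1057 counts in Gli1- replicate 1 and 1 to 18 in the other libraries, so this call rested on 1 library. Among the 8 hypertrophic markers, Mmp13, which encodes a collagenase, had 2289 to 8950 TPM in Gli1+ and 451 to 861 TPM in Gli1- libraries, while Col10a1 had 49.6 to 195 and 188 to 1160 TPM, and the paired DESeq2 fit called Mmp13 as higher and Col10a1 as lower. The part of these cell types in the lower Bmp2, Bmp3 and Bmp5 and the higher Bmp7 was not tested, and in sorted bulk RNA fewer expressing cells and less RNA per cell cannot be told apart.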

How the data were processed

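Primary cells sorted as CD45-CD31-Ter119- and tdTomato+ or tdTomato- were profiled by poly-A RNA sequencing, with 3 libraries for each of 2 groups. The deposited table holds raw read counts per gene, which the authors' processing notes tie to HISAT2 2.0.5, featureCounts 1.5.0-p3 and mm10. The strand setting is not given in the sources used here. Where genes overlap on opposite strands, reads may thus have been lost or given to the wrong gene. Gene lengths deposited in the table were other per-gene values, equal to the union of exons for 53411 of 54532 genes (GENCODE M21), and there were 0 unused columns of per-sample values.

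Counts were tested with edgeR 4.0.16 (TMM, filterByExpr with a minimum count of 10, quasi-likelihood test, 14801 genes), and a gene was called at a log2 fold change over 1 in size and a Benjamini-Hochberg adjusted p under 0.05, the limits used in the study's methods. DESeq2 1.42.0, limma-voom 3.58.1, other scalings and filters, the replicate number as a block, and each library left out in turn were alternatives; TPM scaling, the DESeq2 block fit without each replicate number and the wide ratio without Nbl1 were added after seeing the data. A called gene is one past both limits. "The paired DESeq2 fit" is the Wald test with the replicate block. The edgeR fits with and without the block, and DESeq2 and limma-voom without it, were run on simulated data. The paired DESeq2 fit was not, and no result here draws on the simulation. CPM, TPM, shares and ratios were computed from the counts here, and shares and ratios carry no test.

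Both fractions came from the same mice per the study's text, but no source ties a number to an animal. Same-numbered libraries deviated together, with correlations across genes of 0.22, 0.72 and 0.47. All were over the limit of 0.1 above which libraries of the same number were treated as pairs. Libraries of unlike number passed it too: Gli1+ replicate 1 with Gli1- replicate 3 (0.27, above the 0.22 of its own number) and Gli1+ replicate 3 with Gli1- replicate 1 (0.11). The limit thus cannot show that the numbers mark animals, and "paired" means only that the replicate number was a block. The biological coefficient of variation was 0.66 without and 0.47 with the block. The members and gene lists were chosen with earlier results of these data known. The text names the 10 members, Gli1, and of each other list called genes, though not all of them, or at most the 3 most abundant. Any other gene was named after its values were seen.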

Additional observations from a re-analysis of the deposited data

How the results depend on the processing

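The 10 log2 fold changes were recomputed in 20 alternative fits. With all 14801 genes, edgeR called 0 genes (514 at an unadjusted p under 0.05), and it called 0 in each fit that left out 1 library; the count was 267 with no filter, 30 with DESeq2, 428 with the DESeq2 replicate block, and 781, 174 and 71 with that block without replicate 1, 2 and 3. Bmp7 was called with no filter (1.97), with the DESeq2 block (1.91) and with it without replicate 1 (1.55) or 2 (2.46). Bmp2 was called with the DESeq2 block (-1.31) and without replicate 1 (-1.11), and Bmp3 (-1.47) and Bmp5 (-1.39) with the block without replicate 1. With the replicate block, edgeR and limma-voom each called 0 genes, so no call of a member changed there. Bmp6 turned negative with library totals (-0.0123), limma-voom (-0.11), the edgeR, DESeq2 and limma-voom blocks (-0.11, -0.12 and -0.11), TPM scaling (-0.0224) and the DESeq2 block without replicate 2 (-0.35) or 3 (-0.10), and ran from -0.44 to 0.35 without a library. Grem1 turned positive with TPM scaling (0.12) and the DESeq2 block without replicate 2 (0.33) or 3 (0.0428), and ran from -0.50 to 0.33 without a library. Nog ran from -0.0465 to 1.09 without a library and was -0.11 with the DESeq2 block without replicate 3, and Chrdl1 was -0.11 with that block without replicate 1. The cause was not tested. On the wider list of 19 ligands and 18 antagonists and modulators, without Bmp1, Tll1 and Tll2, the log2 ratio was 0.63 in Gli1+ and 1.44 in Gli1- cells. It was -0.43 and -0.41 without Nbl1, an alternative chosen after seeing the data. The leading shares and the ratio of the members otherwise moved by less than their SD. For leaving out 1 library and for the median share this was fixed in advance. With 3 libraries, neither value can lie a full SD from the mean. Counts without gene length, where it was not fixed, gave shares of 45.7% in Gli1+ and 37.0% in Gli1- cells, and log2 ratios of -4.08 and -4.81. The wider list gave shares of 41.9% and 38.4%. Even so, Bmp6 passed Bmp2 in mean share in Gli1- cells without Gli1- replicate 1.

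With 3 libraries a group and a biological coefficient of variation of 0.66, the members with few counts, Bmp4, Gdf5 and Nog, had standard errors of 0.79 or more on the log2 scale. A 2-fold difference was not detectable for them at this spread. The limit was not confined to them: in edgeR Bmp7 (4.06-fold, SE 0.50) and Bmp2 (2.48-fold, SE 0.40) had an adjusted p of 0.9999 too, and Chrdl1 had an SE of 0.76.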
